A study of Xenopus laevis with 9 samples.

Results

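The zic genes of *Xenopus laevis*, the African clawed frog, were followed across anterior tissue exposed to retinoic acid (RA), to 4-oxo-RA or to solvent. The members described are the rows of the deposited gene count table for zic1, zic2, zic4 and zic5, chosen by symbol, which are 8 of 58413 rows. *X. laevis* is allotetraploid, and each of these genes has an L and an S copy (homeologs) that were counted apart. The embryos were wild type and came from 3 females. The anterior part of each embryo was cut off at stage 12.5 of Nieuwkoop and Faber, the end of gastrulation, and collected at stage 15, the early neurula. Between these stages the tissue was kept in 1 µM RA, in 10 µM 4-oxo-RA, an oxidised form of RA with a keto group on its ring, or in the solvent dimethyl sulphoxide (DMSO), given as 10 µM. Messenger RNA was sequenced from 9 libraries, 3 for each treatment. Whether the 3 libraries of a treatment are separate cultures is not stated, and every p-value therefore reflects the spread among these libraries alone, which may be technical.

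Zic proteins are transcription factors with zinc fingers of the C2H2 type, related to those of the Gli proteins that carry Hedgehog signals. In the frog embryo they act downstream of neural induction, where bone morphogenetic protein (BMP) signals are blocked, and they mark the neural plate and its lateral edges. At the neural plate border zic1 works with pax3 to specify neural crest, and zic5 has been tied to crest formation. Mutations of ZIC2 in humans cause holoprosencephaly, a failure of the forebrain to divide.

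Library totals ranged from 9404644 to 20883648 counts, and 20811 genes passed the filter on low counts. Levels below are CPM, counts scaled to the normalized size of each library, with SD over 3 libraries. Of 13 tested retinoid response genes, 12 rose with RA and 11 with 4-oxo-RA (edgeR adjusted p below 0.05). All 13 rose with each in the blocked fit described below. Among all 20811 tested genes 254 rose with RA and 130 with 4-oxo-RA (3.50% and 2.05% in the blocked fit). Of the anterior neural markers rax.L and pax6.L had at least 860 counts in every library, while fezf2.S had 34 to 221 and six3.S 0 throughout. Of the posterior trunk markers hoxa9.L, hoxc9.L, hoxc9.S, cdx2.S and cdx4.S had 0 counts in all 9 libraries, but cdx2.L had 131 to 406 counts and tbxt.S 47 to 208. Their summed level was 26.2 to 55.0 CPM in DMSO, 30.8 to 55.3 CPM in RA and 28.6 to 35.1 CPM in 4-oxo-RA. Across genes, deviations from the group mean correlated between libraries of equal replicate number (r from 0.434 to 0.536) and not between those of unequal number (r from −0.326 to −0.132). Removing the group mean ties the latter values to the former, so they are no separate evidence of pairing. A second edgeR fit that held the replicate number constant, called the blocked fit, is given beside the fit with treatment alone.

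Among these 8 rows, 7 were tested and zic5.L was not. The row zic5.L held 1 count over all 9 libraries, in DMSO replicate 2, which is 0.00781 CPM with an exact 95% Poisson interval from 0.000198 to 0.0435 CPM. Its homeolog zic5.S had 796 counts over the 4-oxo-RA libraries and 1868 over the DMSO libraries. Counts of 0 for zic5.L in RA and in 4-oxo-RA allow up to 3 counts per group, or 0.0731 and 0.0799 CPM, limits that cover counting error only. Transcript lengths were not used here, so CPM of different zic genes are not ranked against each other. In the RefSeq annotation of assembly Xenopus_laevis_v10.1, zic1 and zic4 are direct neighbours on both subgenomes, and so are zic2 and zic5. The table lists zic1.L among the older names of zic1.S, so the L and S letters may differ between annotation releases.

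Zic expression was lower with RA than with DMSO in every pair of libraries with the same replicate number, for each of the 7 tested members. The share of all tested genes that were lower in every pair was not computed. Deviations from the group mean correlated between members (r up to 0.956, zic2.L with zic2.S), so these are not 7 separate observations. In the blocked fit 7 of 7 fell and 0 rose, where 3.17% of all tested genes fell and 3.50% rose. Those 7 were both copies of zic1, zic2 and zic4 together with zic5.S. With treatment alone edgeR called 0 of 7 members, against 1.68% of all genes. Unadjusted, 5 had a p below 0.05, a threshold at which the share of all genes was not computed. Other tools without the block called 3 members (DESeq2, with 651 of all 20811 genes) and 2 members (limma-voom, with 397). The median log2 change of the 7 members was −0.95, beside −0.00013 over all tested genes. The RA and DMSO groups did not overlap for 3 of 7 members, all 3 lower with RA. Over all tested genes 6.96% were lower and 7.78% higher without overlap. In these bulk samples fewer cells that express zic genes and less zic RNA per cell cannot be told apart.

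**Figure D1:**
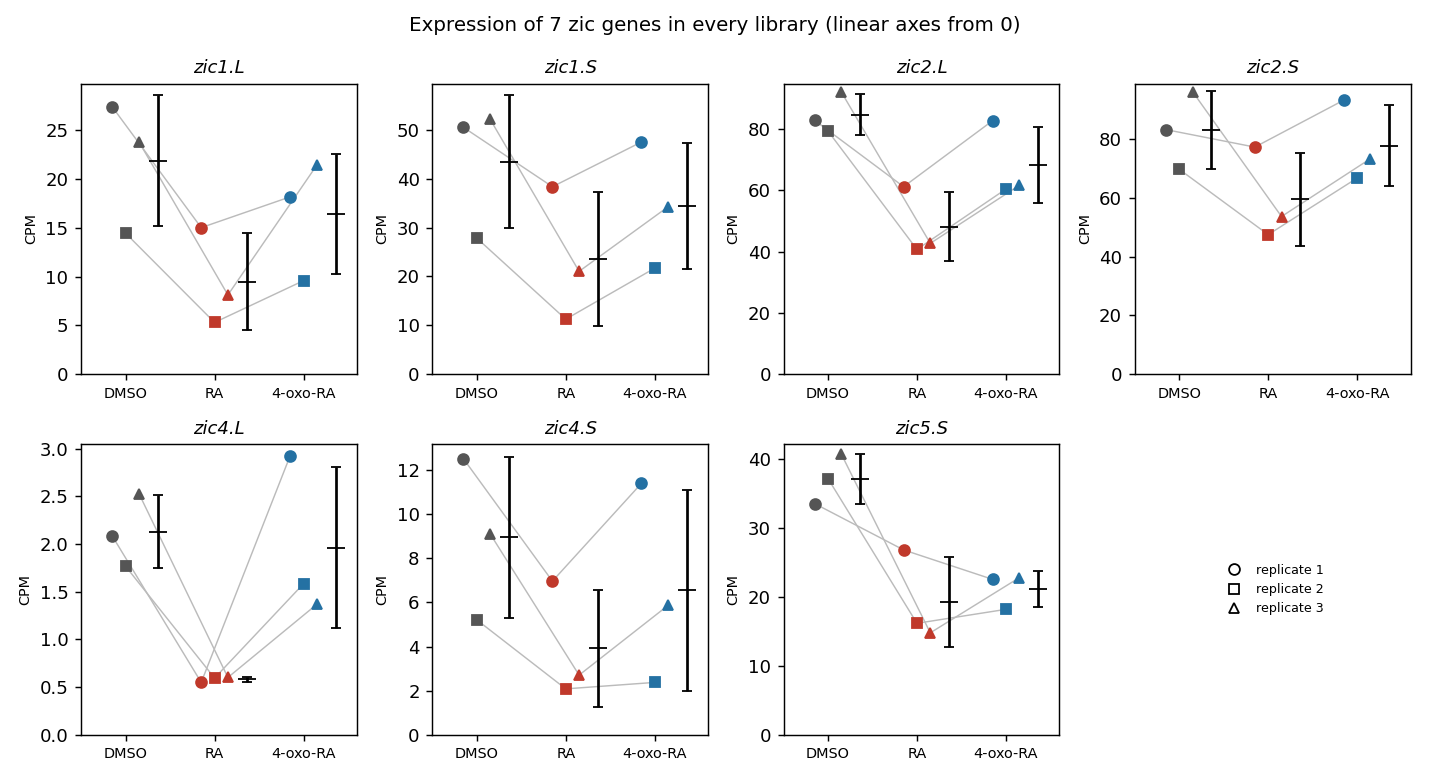
Each panel shows 1 tested zic gene, with CPM on a linear axis from 0 and 1 point per library for DMSO, RA and 4-oxo-RA. Marker shapes and grey lines join libraries with the same replicate number, and the bar beside each group is the mean with SD (n = 3). In all 7 panels every grey line goes down from DMSO to RA, and zic4.L in RA sits near 0.58 CPM.

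Among these members the 3 largest estimated changes with RA, each over 2-fold, were those of zic4.L, zic1.L and zic4.S, which belong to a pair of neighbouring genes. The remaining copy of that pair, zic1.S, was 1.85-fold lower without the block, a smaller estimate than that of zic5.S (1.94-fold). In the blocked fit their log2 changes were −0.996 and −0.990, so the order of these genes is not resolved. Expression of zic1.L, an early regulator of neural crest, was 27.4, 14.5 and 23.8 CPM in the DMSO libraries and 15.0, 5.30 and 8.12 CPM in the RA libraries. The groups overlapped because DMSO replicate 2 lay just below RA replicate 1. The mean was 21.9 ± 6.69 CPM in DMSO (SD, n = 3) and 9.48 CPM in RA, the fitted level was 2.32-fold lower with RA, and the log2 change was −1.21 ± 0.40 (SE, edgeR adjusted p = 0.268). In the blocked fit zic1.L fell by 1.26 on the log2 scale (blocked edgeR adjusted p = 4.63e-04). The S copy, zic1.S, had 50.5, 27.9 and 52.2 CPM in DMSO and 38.4, 11.2 and 21.0 CPM in RA. Here too the DMSO library of replicate 2 was low and the RA library of replicate 1 high, so that the groups overlapped. Its log2 change was −0.89 ± 0.42 (edgeR adjusted p = 0.555), and in the blocked fit its 95% interval ran from −1.34 to −0.65 (blocked edgeR adjusted p = 9.45e-04).

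The gene zic4, whose mouse counterpart acts in the developing cerebellum, had most of its counts on the S row. In zic4.L the DMSO libraries had 2.08, 1.77 and 2.53 CPM and the RA libraries 0.550, 0.595 and 0.601 CPM. Every RA library lay well below every DMSO library, although the RA values rest on 24 counts in all. Its fitted level was 3.60-fold lower with RA, a log2 change of −1.85 ± 0.43 (edgeR adjusted p = 0.0710, blocked edgeR adjusted p = 0.0187). Levels of zic4.S were 12.5, 5.21 and 9.10 CPM in DMSO and 6.96, 2.08 and 2.71 CPM in RA. Those groups overlapped, and the change was −1.20 ± 0.58 without the block (edgeR adjusted p = 0.584) and −1.30 ± 0.24 with it (blocked edgeR adjusted p = 0.00346). The call of zic4.L was lost in the blocked fit without each replicate number in turn, and that of zic4.S without replicate 3.

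For the other neighbouring genes, zic2 and zic5, the estimated changes were below 2-fold, as was that of zic1.S. Expression of zic2.L was 82.9, 79.4 and 92.1 CPM in DMSO and 61.2, 40.7 and 42.7 CPM in RA. All RA libraries lay below all DMSO libraries, and replicate 1 was the highest of the RA libraries. Means were 84.8 ± 6.58 and 48.2 ± 11.3 CPM, a log2 change of −0.82 ± 0.18. Without the block its edgeR adjusted p was 0.0507, and with the block it was 3.25e-04. With single libraries omitted and no block, zic2.L was called in 2 of 9 fits. There the edgeR adjusted p ran from 0.0108, without RA replicate 1, to 0.225. The S copy, zic2.S, went from 83.3, 69.8 and 96.2 CPM to 77.3, 47.5 and 53.7 CPM. Its groups overlapped and its change was the smallest of those that passed with the block, −0.48 ± 0.20 (edgeR adjusted p = 0.461, blocked edgeR adjusted p = 0.0168). That call was lost in the blocked fit without replicate 2 or replicate 3.

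The gene zic5.S, the copy of zic5 that was detected throughout, had DMSO and RA levels that did not overlap. Its DMSO libraries had 33.6, 37.2 and 40.7 CPM and its RA libraries 26.8, 16.2 and 14.8 CPM. Every RA library was lower than every DMSO library. Means of 37.2 ± 3.59 and 19.3 ± 6.58 CPM gave a 1.94-fold lower level with RA and a log2 change of −0.95 ± 0.22 (edgeR adjusted p = 0.0612). The call was made with the block (blocked edgeR adjusted p = 0.00224). Without the block it was made in 1 of 9 omissions of a single library, that of RA replicate 1 (edgeR adjusted p = 0.00462). Over the 9 omissions the edgeR adjusted p reached 0.245. In the blocked fit without replicate 2 it narrowly missed (blocked edgeR adjusted p = 0.0502).

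**Figure D2:**
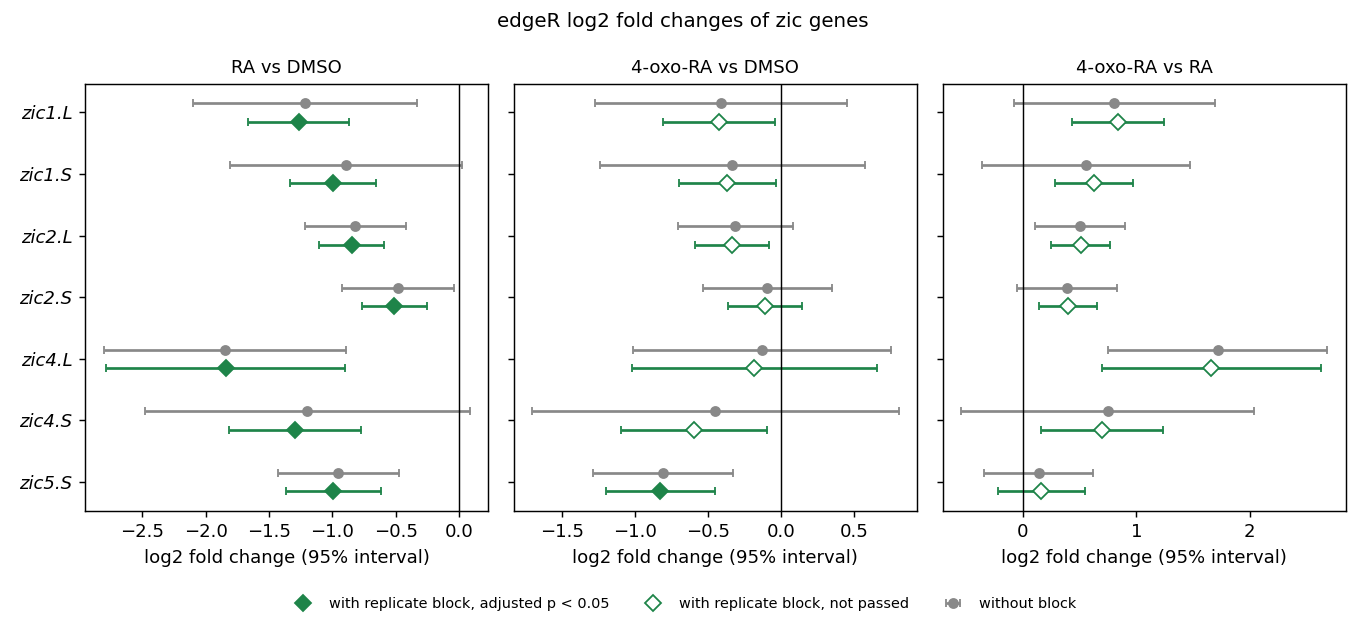
Log2 fold changes of 7 tested zic genes in the 3 comparisons, with 95% intervals, from edgeR with treatment alone (grey circles) and from the blocked fit (green diamonds, filled where the adjusted p is below 0.05). In the comparison of RA with DMSO all points lie left of 0 and 7 diamonds are filled, while 1 is filled for 4-oxo-RA against DMSO and 0 for 4-oxo-RA against RA.

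The ratio of RA to DMSO was not the same in the 3 pairs. For zic1.S the log2 ratio of RA to DMSO was −0.40 in replicate 1, −1.31 in replicate 2 and −1.31 in replicate 3. For zic5.S the ratios were −0.32, −1.20 and −1.46, and for zic2.L −0.44, −0.96 and −1.11. In 6 of 7 members replicate 1 had the ratio closest to 0, the exception being zic4.L, the one with the fewest counts of those tested.

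Other tissues differed between the libraries as well. The summed level of 11 somite muscle marker rows was 973, 347 and 82.3 CPM in DMSO replicates 1, 2 and 3, and 705, 47.4 and 19.5 CPM in the corresponding RA libraries. With 4-oxo-RA it was 678, 138 and 219 CPM. Replicate 1 was thus richest in muscle RNA in every treatment, the RA libraries were lower than DMSO in every pair, and the ranges of the treatments overlapped. Rows myf5.S and actc1.S had 0 counts throughout, whereas actc1.L had 76 to 2547 counts per library and myod1.S 40 to 319. For muscle genes edgeR called 0 of 8 tested with either retinoid (0 at an unadjusted p below 0.05, 0 by DESeq2 or limma-voom), though 1, actc1.L, fell with RA in the blocked fit. Over all tested genes the blocked fit called 3.17% lower and 3.50% higher with RA, and 1.31% and 2.05% with 4-oxo-RA. Treatment alone called 1.68% with RA and 0.735% with 4-oxo-RA in either direction. In mouse embryos Zic1 is also expressed in somites, and the part of muscle tissue in the zic values was not tested. Summed epidermis markers, 14 rows led by krt70.S and krt12.4.L, ranged from 8427 to 10619 CPM in DMSO and from 8573 to 10216 CPM in RA. Of 10 tested epidermis genes 1, krt70.L, fell with RA (log2 change −0.85 ± 0.14, edgeR adjusted p = 0.00896), and with the block 1 rose and 4 fell. With 4-oxo-RA edgeR called 0 of these 10 (3 at an unadjusted p below 0.05, 1 each by DESeq2 and limma-voom), and 3 fell with the block.

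Markers of other anterior and midline tissues also moved with treatment. Summed anterior neural markers were at 1069 to 1262 CPM in DMSO, 693 to 920 CPM in RA and 772 to 972 CPM in 4-oxo-RA. Of 13 tested, 7 fell with RA and 2 with 4-oxo-RA (8 and 7 with the block). Over all 20811 tested genes 95 fell with RA and 23 with 4-oxo-RA (3.17% and 1.31% with the block). Neither rax.L nor pax6.L, named with their values known, was called with either retinoid in either fit. Axial midline markers summed to 85.4 to 113 CPM in DMSO, 32.4 to 82.8 CPM in RA and 40.9 to 73.6 CPM in 4-oxo-RA, and of 6 tested 2 fell with RA and 1 with 4-oxo-RA (5 and 4 with the block). For cement gland, the mucus-secreting organ of the tadpole head, the sums were 3900 to 5774 CPM in DMSO, 3725 to 3861 CPM in RA and 3537 to 3965 CPM in 4-oxo-RA. Of 8 tested cement gland genes 4 fell with RA and 1 with 4-oxo-RA (6 and 5 with the block). Of 10 primary neuron genes, 0 passed with either retinoid (4 and 1 at an unadjusted p below 0.05, 0 by DESeq2 or limma-voom), and 4 and 1 fell with the block. The part of these tissues in the zic values was not tested.

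**Figure D3:**
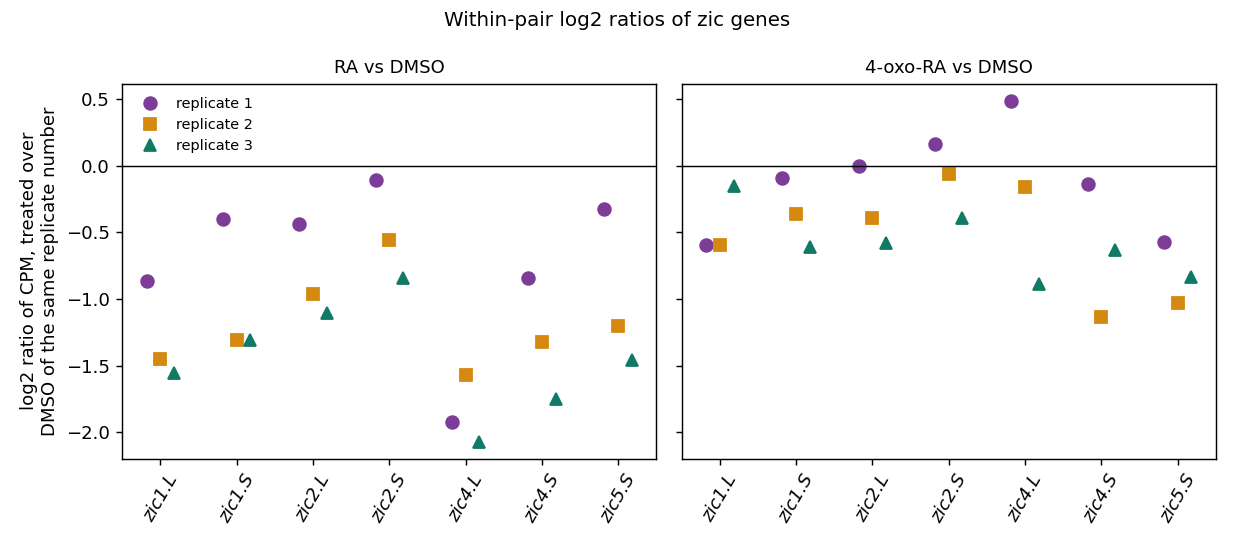
Log2 ratios of CPM between a treated library and the DMSO library of the same replicate number, for 7 tested zic genes (left, RA, and right, 4-oxo-RA), with 1 marker per replicate number. All points for RA lie below 0 and those of replicate 1 are the highest for 6 genes. Points for 4-oxo-RA also lie below 0, apart from those of zic2.S and zic4.L in replicate 1.

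With 4-oxo-RA 1 of 7 zic genes, zic5.S, fell in the blocked fit and 0 rose, where 1.31% of all tested genes fell and 2.05% rose. Its 4-oxo-RA libraries had 22.6, 18.2 and 22.8 CPM, all below the DMSO range of 33.6 to 40.7 CPM. The mean was 21.2 ± 2.59 CPM and the log2 change −0.81 ± 0.22 (edgeR adjusted p = 0.226, blocked edgeR adjusted p = 0.0143). With treatment alone edgeR called 0 of 7 members against 0.735% of all genes. By that fit 1, zic5.S, was below an unadjusted p of 0.05, at rank 305 of 20811 genes. In the blocked fit 5 of 7 had an unadjusted p below 0.05, a threshold at which the share of all genes was not computed. DESeq2 without the block called 1, also zic5.S, among 336 genes in all, and limma-voom 0 among 134. These calls depended on the libraries kept. Without the block edgeR called zic5.S in 1 of 9 omissions of a single library, with edgeR adjusted p from 0.0446 to 0.589. That omission was of RA replicate 1, a library of the shared fit that is in neither group compared. The blocked call was lost when replicate 2 of every treatment was left out (blocked edgeR adjusted p = 0.178). No other member had 4-oxo-RA and DMSO groups that did not overlap, while over all tested genes 5.28% were lower and 5.90% higher without overlap.

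Log2 changes of the other 6 members with 4-oxo-RA lay between −0.45 and −0.10 without the block, and between −0.60 and −0.11 with it. In the blocked fit the 95% intervals of zic1.L (−0.81 to −0.04), zic1.S (−0.70 to −0.04), zic2.L (−0.59 to −0.08) and zic4.S (−1.10 to −0.09) excluded 0. Those of zic2.S and zic4.L included it. None of the 6 passed over all genes (blocked edgeR adjusted p from 0.184 to 0.922). Levels of zic1.L were 18.2, 9.58 and 21.4 CPM and those of zic1.S 47.5, 21.7 and 34.3 CPM, and in each the library of replicate 2 lay below all DMSO libraries while the groups overlapped. Their changes were −0.41 ± 0.39 and −0.34 ± 0.41 (edgeR adjusted p = 1.00 for each). Levels of zic2.L were 82.8, 60.4 and 61.7 CPM (−0.31 ± 0.18) and those of zic2.S 93.3, 66.8 and 73.4 CPM (−0.10 ± 0.20), again with overlap. In zic4.L the libraries had 2.93, 1.58 and 1.37 CPM, with replicate 1 above every DMSO library, and in zic4.S 11.4, 2.38 and 5.87 CPM. Without the block their 95% intervals, from −1.02 to 0.75 and from −1.71 to 0.80, include a 2-fold lower level. The signs of zic2.S and zic4.L turned when single libraries were omitted. The median over the 7 members was −0.34 on the log2 scale, beside 5.4e-05 over all tested genes.

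Set directly against each other, 4-oxo-RA had higher estimated zic levels than RA for each of the 7 members, with log2 differences from 0.14 for zic5.S to 1.72 for zic4.L. The doses differed 10-fold, so compound and dose cannot be told apart here, and both comparisons with DMSO use the same DMSO libraries. With treatment alone 0 of 7 members passed, with 2 at an unadjusted p below 0.05 and 0 called by DESeq2 or limma-voom, and edgeR called 0 of 20811 genes (0%). Those 2, zic4.L and zic2.L, ranked 27 and 172 of all tested genes by unadjusted edgeR p. The blocked fit also called 0 of 7, where 0.0240% of all tested genes were called higher and 0.135% lower. In it 6 of 7 had an unadjusted p below 0.05. The share of all genes at that unadjusted threshold was not computed for either fit. With the block DESeq2 called 2, zic1.L and zic2.L, among 84 of 20811 genes, 28 of them higher with 4-oxo-RA.

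The member without overlap between the retinoids was zic4.L, where RA values of 0.550 to 0.601 CPM stood against 1.37 to 2.93 CPM with 4-oxo-RA. Over all tested genes 2.88% were higher and 3.60% lower with 4-oxo-RA without overlap. Its difference was 1.72 ± 0.44 (edgeR adjusted p = 1.00, blocked edgeR adjusted p = 0.297). In the blocked fit the 95% interval of zic5.S ran from −0.22 to 0.55, and those of all other tested members excluded 0. They ran from 0.28 to 0.97 for zic1.S and from 0.43 to 1.25 for zic1.L. None passed over all genes in that fit, where zic1.L had the smallest blocked edgeR adjusted p (0.147). Without the block the 95% interval of the difference ran from −0.34 to 0.62 for zic5.S and from −0.36 to 1.48 for zic1.S. For zic2.L it ran from 0.11 to 0.90, although this did not pass over all genes (edgeR adjusted p = 1.00, blocked edgeR adjusted p = 0.173).

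The share of counts that came from the L copy was compared within each gene, because it does not depend on library size. For zic2 the L copy gave 49.9%, 53.2% and 48.9% of the zic2 counts in DMSO, 44.2%, 46.2% and 44.3% in RA, and 47.0%, 47.5% and 45.7% in 4-oxo-RA. Both retinoid groups lay below DMSO without overlap, as was the case for 7.35% of 3510 homeolog pairs with RA and 6.13% with 4-oxo-RA. The mean difference from DMSO was −5.79 percentage points with RA and −3.95 with 4-oxo-RA. For each, the exact two-sided permutation p was 0.1, the smallest that 3 against 3 libraries allow (adjusted p = 0.45 over 9 comparisons). For zic1 the L share was 31.3% to 35.2% in DMSO, 27.8% to 32.0% in RA and 27.7% to 38.5% in 4-oxo-RA, with overlap throughout. The L row of zic4 gave between 7.32% of its counts in RA replicate 1 and 40% in 4-oxo-RA replicate 2. That highest zic4 share rests on 20 L and 30 S counts and has an exact 95% Clopper-Pearson interval from 26.4% to 54.8%. How reads shared by both copies were assigned was not given, so these shares describe the counts rather than the 2 loci.

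**Figure D4:**
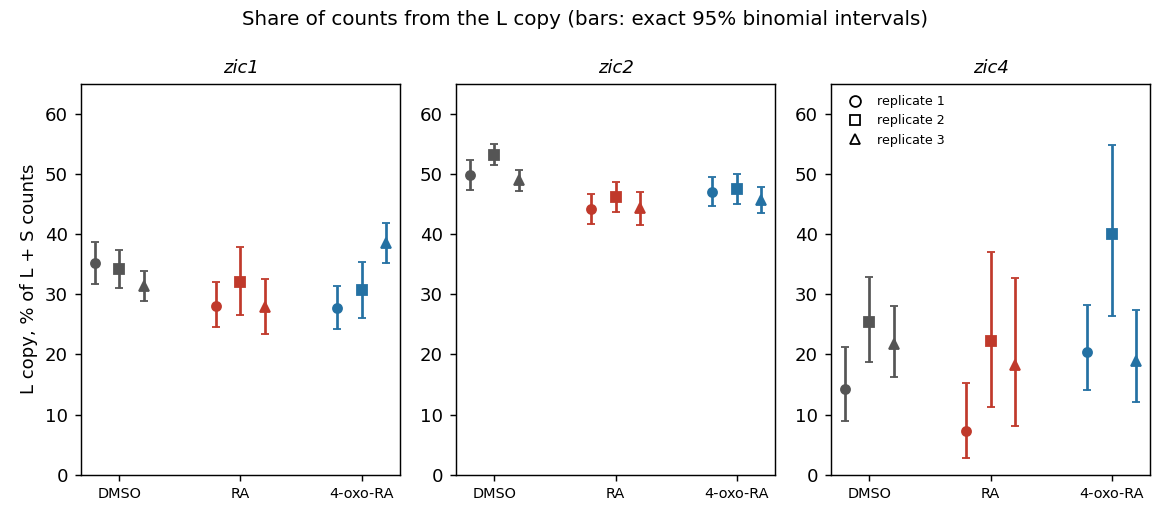
Share of the L copy in the counts of both copies, in percent, for zic1, zic2 and zic4 in every library, with exact 95% binomial (Clopper-Pearson) intervals that cover counting error only. For zic2 the 3 DMSO points, at 48.9% to 53.2%, lie above all 6 points of the retinoid groups, while the other genes overlap.

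Members varied together over the 9 libraries to different degrees. On log2 CPM, Pearson's r between homeologs was 0.950 for zic1, 0.926 for zic2 and 0.642 for zic4. Between neighbouring genes it was 0.942 for zic1.S with zic4.S, 0.689 for zic1.L with zic4.L and 0.736 for zic2.S with zic5.S. Pairs that were neither homeologs nor neighbours ranged from 0.589 (zic4.L with zic5.S) to 0.957 (zic1.S with zic2.S), above every neighbouring pair. These values describe the same 9 libraries, which share treatment and replicate number, and they include the shift between treatments. After each group's mean was removed, r was 0.933 for the copies of zic1, 0.956 for those of zic2 and 0.918 for zic1.S with zic4.S, but 0.149 for zic1.L with zic4.L. For zic1.S with zic2.S, which are not neighbours, it was 0.944.

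The genes most like each member over the 9 libraries were ranked by the same r among 10001 others, all averaging 5 CPM or more and carrying a full symbol. For zic2.L they were hesx1.S (r = 0.985), an anterior forebrain gene, znf608.S (0.970) and snai2.L (0.965), a crest regulator. For zic5.S they were fezf2.S (0.980), a forebrain regulator, efnb2.L (0.972), which encodes an ephrin ligand, and pdgfra.L (0.963), a receptor gene expressed in crest. For zic1.L they were ttc21b.L, tp53inp2.S and msi1.L, the last a neural progenitor gene, with r from 0.957 to 0.964. For zic1.S they were nsd2.S, tp53inp2.S and hnrnpu.S, with r from 0.958 to 0.967. The closest genes to zic4.S were rbm38.L, nsd2.S and supt16h.S (r from 0.964 to 0.978), and to zic2.S znf219.S, nsd2.S and pim3.L (0.953 to 0.963). For zic4.L they were myo1a.L, rgmb.S and litaf.L, with r from 0.882 to 0.920. No p is given, since each set is the top of a search over all these genes.

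Genes of the neural plate border, where zic1 acts, were followed as a list. Of 21 tested border genes 3 fell and 1 rose with RA, and with the block 10 fell and 2 rose. The BMP-responsive homeobox genes msx2.L and msx1.L changed by −1.37 ± 0.13 and −0.88 ± 0.16 (edgeR adjusted p = 3.05e-04 and 0.0177), while prdm1.S, a repressor gene of the border, rose by 0.73 ± 0.12 (edgeR adjusted p = 0.0123). The median was −0.43 on the log2 scale. The zic1 partner pax3 is given outside the naming rule, with its values already known. Without the block its copies had log2 changes of −0.56 ± 0.27 (pax3.L) and −0.76 ± 0.28 (pax3.S), and neither passed (edgeR adjusted p = 0.585 and 0.370). With the block both passed, at −0.64 and −0.85 (blocked edgeR adjusted p = 0.0125 and 0.00601). With 4-oxo-RA 2 border genes fell, msx2.L from 68.0 ± 3.63 to 31.8 ± 4.24 CPM and msx1.L by 0.82 on the log2 scale (edgeR adjusted p = 0.00289 and 0.0408), and 6 fell and 1 rose with the block.

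Neural crest genes had a median log2 change of −0.82 with RA, and whether zic genes bear on it was not tested. Of 23 tested, 4 fell, and with the block 15 fell and 3 rose. Among all 20811 tested genes 95 fell with RA and 23 with 4-oxo-RA. With the block 3.17% of all fell and 3.50% rose with RA, and 1.31% and 2.05% with 4-oxo-RA. Levels of the crest regulator snai2.S averaged 1.57 ± 0.638 CPM with RA against 8.94 ± 1.42 CPM with DMSO, which is −2.53 ± 0.35 on the log2 scale (edgeR adjusted p = 0.00341), and sox9.S changed by −0.95 ± 0.16 (edgeR adjusted p = 0.0139). Its homeolog sox9.L, named with its values known, went the other way, from 23.7 to 53.1 CPM on average, and rose with the block (1.17 ± 0.28 without it, edgeR adjusted p = 0.0830, blocked edgeR adjusted p = 1.14e-04). The copy snai2.L, at −2.19 ± 0.43, also passed (edgeR adjusted p = 0.0284). With 4-oxo-RA snai2.S alone fell without the block, by 1.75 on the log2 scale (edgeR adjusted p = 0.0418), and 8 fell and 3 rose with it.

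With RA the median log2 change of 23 tested early neural plate genes was −0.29, and pou3f1.L, a neural transcription factor gene, was the one that fell (−1.33 ± 0.26, edgeR adjusted p = 0.0303), while 7 fell with the block. Those 7 were pou3f1.L, both copies of pou3f2, ncam1.S, nes.L, foxd4l1.1.L and msi1.L (blocked edgeR adjusted p from 0.00101 for pou3f2.L to 0.0232 for msi1.L). Most of them are named outside the naming rule, with values known. Among all 20811 tested genes 95 fell with RA and 23 with 4-oxo-RA (3.17% and 1.31% with the block). The pan-neural genes sox2.L and sox3.S, also outside the naming rule, had log2 changes of −0.01 ± 0.15 and 0.27 ± 0.13, and neither passed in either fit. With 4-oxo-RA edgeR called 0 of the 23 (2 at an unadjusted p below 0.05, 0 by DESeq2 or limma-voom, 1 with the block), and the smallest adjusted p belonged to sox3.S, at 0.34 ± 0.13 (edgeR adjusted p = 0.586).

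Among relatives of zic, the list of gli and Hedgehog pathway genes had 1 gene lower of 21 tested with each retinoid, the same gene in both. This was gli3.L, which encodes a zinc-finger mediator of Hedgehog signals, at 97.7 ± 4.38 CPM in DMSO, 47.2 ± 9.30 CPM in RA and 50.4 ± 0.838 CPM in 4-oxo-RA. Its log2 changes were −1.05 ± 0.14 (edgeR adjusted p = 0.00329) and −0.95 ± 0.14 (edgeR adjusted p = 0.0101). With the block 2 genes rose and 1 fell with RA, and 1 rose and 1 fell with 4-oxo-RA. Those that rose, named with their values known, were glis2.S with both (blocked edgeR adjusted p = 0.00504 and 0.0159) and gas1.L with RA (blocked edgeR adjusted p = 0.0196). The medians of that list were −0.02 and 0.05. Among 11 tested genes of BMP antagonists and ligands, which set where zic genes are switched on, fst.L, encoding follistatin, rose by 2.41 ± 0.26 with RA (edgeR adjusted p = 6.56e-04) and by 1.85 ± 0.26 with 4-oxo-RA (edgeR adjusted p = 0.00680). In the same list nog2.S, which encodes a BMP antagonist, fell with RA (log2 change −2.07 ± 0.38, edgeR adjusted p = 0.0212). With the block 1 rose and 4 fell with RA, and 1 rose and 5 fell with 4-oxo-RA. Among all 20811 tested genes 254 rose and 95 fell with RA, and 130 rose and 23 fell with 4-oxo-RA. Their shares with the block were 3.50% higher and 3.17% lower with RA, and 2.05% and 1.31% with 4-oxo-RA.

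Genes reported to act downstream of zic1 in *Xenopus* had a median log2 change of −1.06 with RA and −0.63 with 4-oxo-RA. Over all 20811 tested genes 95 fell with RA, and 3.17% fell with the block. Of 20 tested in this list, 4 fell with RA and 17 fell with the block, none rising in either. They included both copies of snai2 and wnt8b.S, a brain-expressed Wnt ligand gene, at −1.62 ± 0.33 (edgeR adjusted p = 0.0358). With 4-oxo-RA 1 fell, and 11 fell with the block, where 23 of all 20811 tested genes fell and 1.31% fell with the block. This list shares both copies of pax3 with the border list and both copies of snai2 and foxd3 with the crest list. A further 3 of its genes, named with their values already known, encode retinoid or water-transport proteins. Their estimates below are from the fit without the block. The RA synthesis gene aldh1a2.L changed by −1.29 ± 0.33 with RA (edgeR adjusted p = 0.104, blocked edgeR adjusted p = 2.60e-04). With 4-oxo-RA it changed by −1.21 ± 0.33 (edgeR adjusted p = 0.233, blocked edgeR adjusted p = 0.00124). The carrier gene ptgds.S, whose product binds retinoids, had a log2 change of −0.44 ± 0.15 with RA (edgeR adjusted p = 0.301, blocked edgeR adjusted p = 0.0595). With 4-oxo-RA its log2 change was −0.61 ± 0.15 (edgeR adjusted p = 0.167, blocked edgeR adjusted p = 0.0167). The water channel gene aqp3.L changed by −1.84 ± 0.46 with RA (edgeR adjusted p = 0.0973, blocked edgeR adjusted p = 9.55e-05). Between the retinoids edgeR called 0 genes of these 6 lists without the block, with at most 3 per list at an unadjusted p below 0.05 and 0 by DESeq2 or limma-voom. The blocked fit called 1, nes.L, a neural progenitor filament gene. It was higher with 4-oxo-RA by 0.69 on the log2 scale (blocked edgeR adjusted p = 0.0313). That fit called 0.0240% of all tested genes higher and 0.135% lower with 4-oxo-RA than with RA.

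**Figure D5:**
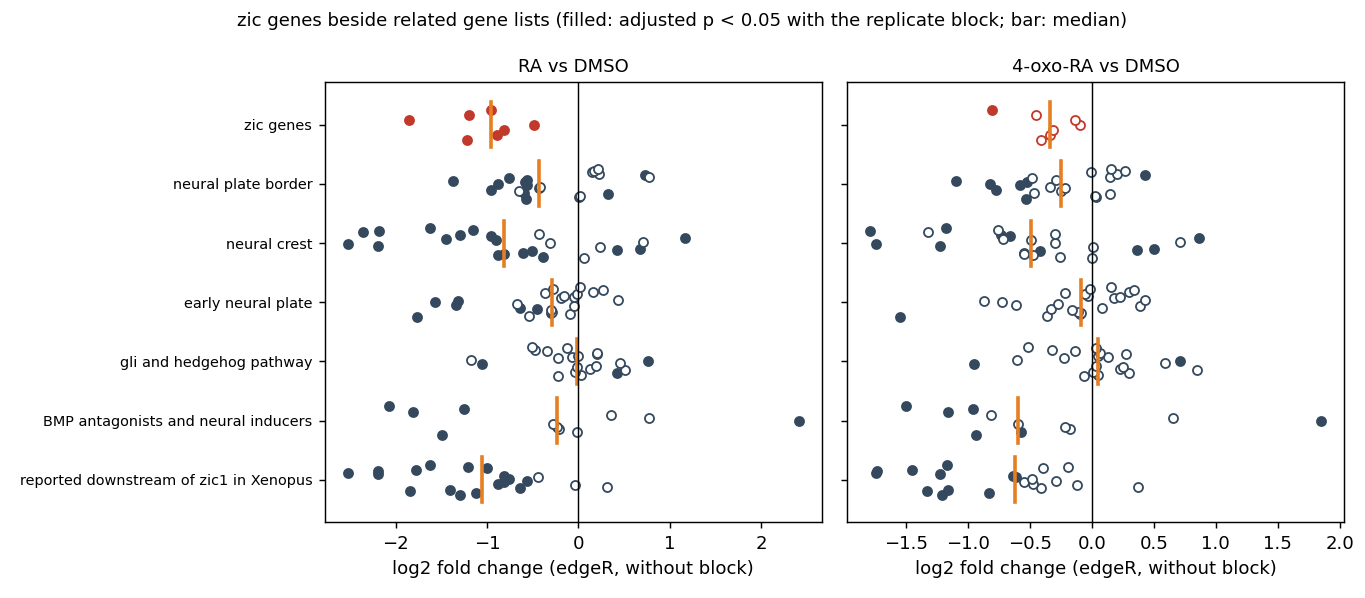
Log2 fold changes (edgeR without the block) of the tested zic genes and of the genes of 6 related lists, for RA and 4-oxo-RA against DMSO, with 1 point per gene, filled where the adjusted p in the blocked fit is below 0.05, and an orange bar at each median. Medians for RA are −0.95 for zic genes, −0.82 for neural crest and −0.02 for the gli and Hedgehog list, and both panels share the DMSO libraries.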

How the data were processed

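Raw gene counts were deposited by the authors as a table of all 9 libraries, and the 9 tables of single samples hold the same values. Alignment used STAR (version 2.7.3), per the submitters' processing notes, after a stranded mRNA kit and paired reads of 50 bases, per the labels. Counter, genome build and annotation: not given in the sources used here. Coordinates and sequences are therefore not printed.

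Differences were tested with edgeR 4.0.16 in R 4.3.3 by its quasi-likelihood test, with TMM normalization, edgeR's filter by group, all 9 libraries and treatment alone. A gene was called where its p, adjusted by Benjamini and Hochberg over 20811 genes, was below 0.05. The share of all genes with an unadjusted p below 0.05 was not computed, so counts at that threshold stand without it. Replicate numbers were taken to pair libraries because every same-number r exceeded 0.1, a pairing found in the data and not tied to a female by the labels. SE and 95% intervals came from the F statistic, and CPM from TMM-scaled totals. Alternatives used DESeq2 1.42.0, limma 3.58.1 (voom), other filters, RLE scaling, the replicate block, summed homeologs and omitted libraries. The fit with treatment alone was tested on simulated counts that had 1 common spread and no pairing of replicates. The blocked fit was not tested in that way.

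At most the 3 called genes of a list with the smallest adjusted p are named per comparison, or otherwise the 1 with the smallest. List symbols were matched exactly, with an L or S ending or none. One gene of the family is not reported here, so counts and medians over zic members do not cover the whole family. Members and lists were chosen with earlier results of these data known.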

Additional observations from a re-analysis of the deposited data

How the results depend on the processing

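Without the block, the number of zic members called for RA against DMSO was 0 with all libraries. It was 3 with DESeq2, 2 with limma-voom, 5 with no filter on low counts and 1 with at least 10 counts in every library. That number stayed 0 with RLE normalization, only the 2 groups compared, summed homeologs or an adjusted p below 0.01. It was 7 with the replicate block, which stayed at 7 with RLE normalization, DESeq2, limma-voom or only the 2 groups, and became 5 at an adjusted p below 0.01. Leaving out single libraries without the block gave 0 to 2, and leaving out a replicate number in the blocked fit gave 4 to 6. For 4-oxo-RA against DMSO the number was 1 with DESeq2 and with no filter. It was 0 with limma-voom, RLE normalization, at least 10 counts in every library, only the 2 groups compared or summed homeologs. With the replicate block it was 1 in each setting but the stricter threshold. It was 0 to 1 with single libraries left out, and 0 to 2 in the blocked fit without a replicate number. Between the retinoids it was 0 with the replicate block and 2 with the block in DESeq2. It was 0 with single libraries left out, and 0 to 2 in the blocked fit without a replicate number. The settings of the blocked fit were added after the data were seen. No member changed sign for RA against DMSO. Log2 changes with 4-oxo-RA against DMSO turned sign as follows. With single libraries omitted, zic2.S ranged from −0.241 to 0.0250 and zic4.L from −0.522 to 0.0746. In the blocked fit zic2.S became 0.0349 and zic4.L 0.168 without replicate 3. Between the retinoids zic5.S ranged from −0.0136 to 0.448 with single libraries omitted and became −0.0561 in the blocked fit without replicate 3. The cause of these shifts was not tested. Over all genes, RA calls were 349, 651 with DESeq2, 831 unfiltered, 161 at the stricter threshold and 1389 with the block; for 4-oxo-RA they were 153, 336, 453, 78 and 700. Between the retinoids 0 became 13 with DESeq2, 46 unfiltered and 33 with the block. With 1 count, zic5.L could not be tested.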
